A study of Homo sapiens with 25 samples.

Results

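The genes described here are 10 immediate early genes followed after EGFR inhibition: the transcription factors EGR1, EGR2, EGR3 and NR4A1, the immediate early response genes IER2, IER3 and IER5, and the mRNA-binding proteins ZFP36, ZFP36L1 and ZFP36L2. They were chosen by name, with earlier results of these data known. Each was read from the array probe sets annotated to its symbol alone, and the probe set with the highest mean over the 25 arrays leads. Of these 10 genes, 9 had such a probe set, 19 probe sets in all, in a table of 54613 probe sets and 19775 genes, and EGR2 was not analysed here. All 9 passed the filter for testing, a log2 value over 4 on 3 arrays or more, as did 12643 genes. EGR3 met it only through the 6 MCF arrays, and NR4A1 had 6 arrays above 4 with none above 4.47, so in BT20 and MDA-MB-453, where the means of these 2 genes lie below 4, their values are near background and their differences there are counted but not read as a rise or fall.

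The study measured RNA of 3 human cell lines on Affymetrix arrays after addition of erlotinib, an inhibitor of the EGFR kinase, at 10 µM. BT20, a breast cancer line, was sampled at 0 min (4 arrays) and at 30 min, 6 h and 24 h of drug (3 arrays each). MDA-MB-453, another breast cancer line, and a line labelled only MCF were sampled at 24 h and at 0 min (3 arrays per group). All groups grew in medium with 10% foetal bovine serum and had adhered to the dish for 24 h before the drug was added. The labels list no undrugged group at the later times among these samples, so the drug and the time in culture cannot be told apart, and they do not say whether replicates were separate cultures, so each p measures the spread between these samples.

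Immediate early genes are transcribed within minutes of growth factor stimulation and need no new protein synthesis. Downstream of EGFR the kinase ERK phosphorylates ETS-family partners of serum response factor (SRF), which binds CArG boxes in the promoters of many of them, and their transcripts are short-lived. The ZFP36 proteins bind AU-rich elements in mRNA and recruit the deadenylation machinery, so they form an arm of the early response that removes other early transcripts.

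Before the results, 1 array needs naming. Across the 12643 genes tested, BT20 0 min replicate 4 correlated at 0.990 to 0.992 with the 6 h arrays. With the other 0 min arrays it correlated at 0.971 to 0.975, and those correlated with each other at 0.995 or more. For the lead probe sets of the described genes that were called with signal above 4, BT20 changes are therefore given with and without it. At 6 h they are also given against it alone. For their further probe sets and for the genes of the lists below, most single changes are given against all 4 arrays only. That last comparison has 1 array on its 0 min side, which is assumed to vary like the arrays of the other groups, so its standard errors and p-values do not measure the deviation of replicate 4 itself. The 75th percentile of values was 7.65 to 7.81 on the BT20 and MDA-MB-453 arrays, labelled Part 1, and 7.27 to 7.32 on the MCF arrays, labelled Part 2, and levels were compared only inside 1 of these sets. Of the basal markers KRT5, KRT14 and EGFR, 2 had means above 4 in BT20 (KRT5 and EGFR) and 0 of 3 in the other lines. Of 7 luminal markers, 5 lay above 4 in BT20, 6 in MDA-MB-453, where ESR1 did not, and all 7 in MCF. Both leukocyte markers lay at or below 2.18 in every line, while COL1A1 of the fibroblast list was above 4 in all 3 lines and CDH5 of the endothelial list in BT20.

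The promoters of EGR1, IER5 and ZFP36, 1 of each role, are shown because CArG boxes and ETS sites are elements through which this response is known to be transcribed. Each sequence is the RefSeq window of GRCh38.p14 from 250 bases before to 50 bases after the gene's start, on the plus strand, at chr5:138465229-138465528, chr1:181088450-181088749 and chr19:39406597-39406896. Capitals mark the CArG box and the ETS core GGAAG, both searched on both strands.
EGR1: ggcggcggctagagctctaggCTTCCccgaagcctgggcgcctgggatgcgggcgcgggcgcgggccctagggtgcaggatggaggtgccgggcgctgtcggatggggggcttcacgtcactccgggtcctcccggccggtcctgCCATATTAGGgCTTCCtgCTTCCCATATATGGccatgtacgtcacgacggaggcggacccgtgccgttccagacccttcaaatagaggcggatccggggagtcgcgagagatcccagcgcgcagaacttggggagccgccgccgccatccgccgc
IER5: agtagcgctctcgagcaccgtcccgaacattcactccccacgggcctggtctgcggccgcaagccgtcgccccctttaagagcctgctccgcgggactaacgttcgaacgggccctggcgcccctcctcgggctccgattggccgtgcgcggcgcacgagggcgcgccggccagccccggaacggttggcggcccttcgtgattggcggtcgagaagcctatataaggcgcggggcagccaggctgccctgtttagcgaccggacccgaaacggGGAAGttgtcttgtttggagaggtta
ZFP36: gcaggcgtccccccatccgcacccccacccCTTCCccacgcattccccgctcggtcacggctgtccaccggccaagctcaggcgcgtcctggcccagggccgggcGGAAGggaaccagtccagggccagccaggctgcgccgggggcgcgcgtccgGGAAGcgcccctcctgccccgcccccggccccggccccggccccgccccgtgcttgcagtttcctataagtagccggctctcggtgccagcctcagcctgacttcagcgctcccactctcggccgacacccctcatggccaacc

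The EGR1 window held 2 CArG boxes, at 105 to 96 and 83 to 74 bases before the start, and 3 ETS cores, of which the one at 87 to 83 bases shares a base with the second box. The IER5 window held 1 ETS core, shortly after the start, and the ZFP36 window held 3, and in neither were the letters of a CArG box found. In all, 11 windows of 7 of the 10 genes were searched, and 2 of them, 1 of EGR1 and 1 of EGR2, held a CArG box. Among 35116 windows of the same length over all genes, 1.293% held a CArG box and 71.862% the ETS core. The EGR binding site GCGGGGGCG, which 5.072% of windows held, was in none of the 3 printed. These matches describe letters and not bound sites. The promoters of EGR3, IER3 and ZFP36L2 were not used here.

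**Figure D1:**
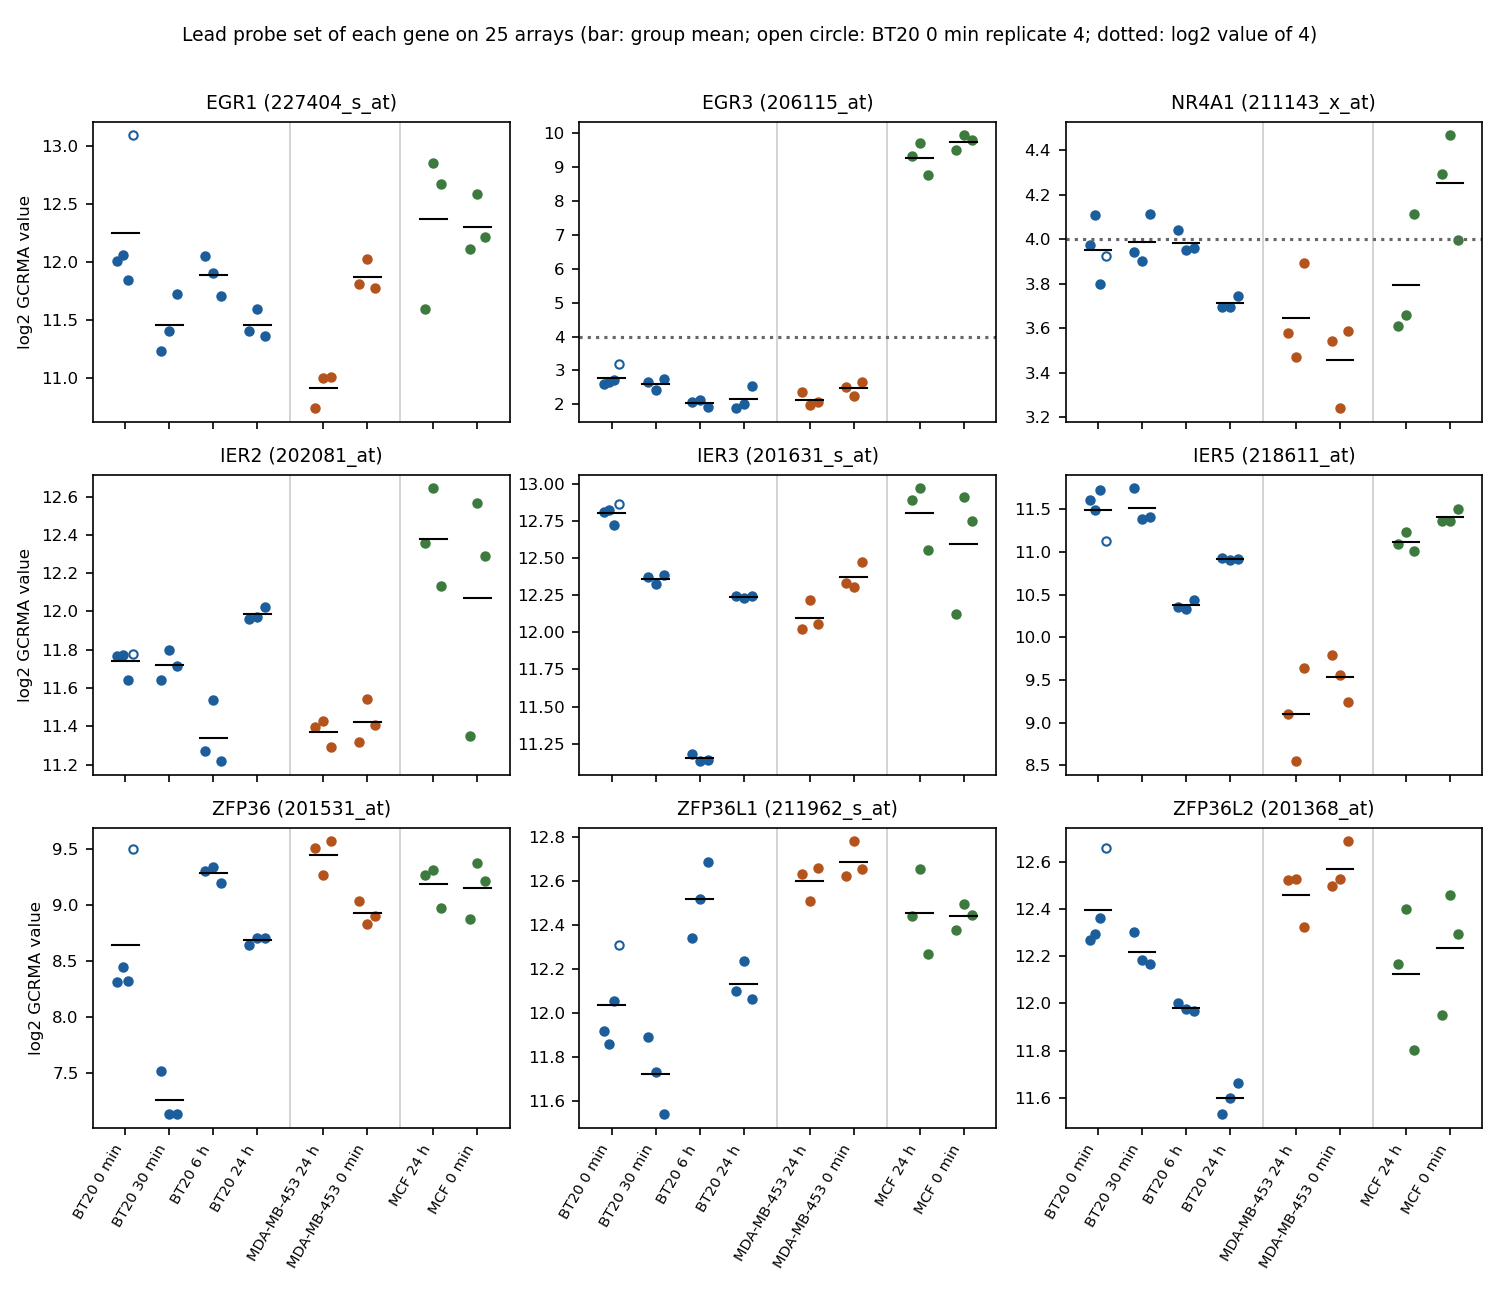
Log2 GCRMA value (vertical axis) of the lead probe set of each of the 9 genes on all 25 arrays, by line and time (horizontal axis), with a bar at the group mean, an open circle for BT20 0 min replicate 4 and a dotted line at a log2 value of 4. IER3 at 6 h in BT20 lies at 11.13 to 11.18, below all other arrays of BT20 and MDA-MB-453. ZFP36 at 30 min in BT20 lies at 7.14 to 7.52, also below all other arrays of these lines.

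Before the drug, IER2, IER3 and IER5 were higher in BT20 than in MDA-MB-453, and ZFP36L1 was lower by its lead probe set. In these bulk samples fewer cells of a type and less RNA per cell cannot be told apart. IER5, whose product is known as a partner of protein phosphatase 2A, had log2 values of 11.61, 11.49, 11.73 and 11.13 in BT20 at 0 min, against 9.79, 9.57 and 9.24 in MDA-MB-453 at 0 min. All BT20 arrays lay above all MDA-MB-453 arrays, and the difference was 1.96 ± 0.20 (SE, adjusted p = 1.53e-07), which is 3.89-fold. Adjusted p-values throughout are from limma with the Benjamini-Hochberg method over the 12643 genes, and a gene is called where this is below 0.05.

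IER3 differed by 0.43 ± 0.08 (adjusted p = 6.28e-05) and IER2 by 0.32 ± 0.09 (adjusted p = 0.00444), both higher in BT20 and with no overlap of arrays. NR4A1, an orphan nuclear receptor, showed 0.49 ± 0.11 (adjusted p = 0.000804), with both means below 4. ZFP36L1 was lower in BT20 by its lead probe set, at -0.65 ± 0.12 (adjusted p = 0.000102), but its other tested probe set showed -0.02 ± 0.34 (adjusted p = 0.968). In all, 5 of 9 genes were called, 4 higher and 1 lower in BT20, against 74.6% of all genes tested, 36.7% higher and 37.9% lower, so the share among these genes was no higher than the background. Among the 7 genes with a mean above 4 in at least 1 of the lines 4 were called, against 76.2% of all such genes. Without BT20 0 min replicate 4, 7 of 9 were called, against 78.6% of all genes. The added calls were ZFP36, at -0.56 ± 0.11 (adjusted p = 0.000167), and ZFP36L2, at -0.26 ± 0.08 (adjusted p = 0.00783). EGR1 differed by 0.38 ± 0.22 (adjusted p = 0.128) with all 4 arrays and by 0.10 ± 0.13 (adjusted p = 0.488) without replicate 4.

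The 30 min comparison in BT20 addresses the earliest time sampled after EGFR inhibition. ZFP36, EGR1 and IER3 lay below all 0 min arrays at this time, by 2.61-fold for ZFP36, but no gene of the 12643 passed the test against all 4 of the 0 min arrays. ZFP36, which binds AU-rich mRNA and is itself induced by growth factors, had log2 values of 7.52, 7.14 and 7.14 at 30 min, against 8.32, 8.45, 8.32 and 9.50 at 0 min. The highest 0 min value was that of replicate 4, and the groups did not overlap with or without it. The change was -1.38 ± 0.21 (adjusted p = 0.0521). Without replicate 4 it was -1.10 ± 0.11 (adjusted p = 0.000326), a fold of 2.14, and ZFP36 was then the 1 gene called of 12643, which is 0.00791% of all genes.

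EGR1, a zinc finger transcription factor induced by ERK signalling, had log2 values of 11.23, 11.41 and 11.73 at 30 min, against 12.01, 12.07, 11.85 and 13.10 at 0 min. The groups did not overlap, and the change was -0.80 ± 0.22 (adjusted p = 0.779), or -0.52 ± 0.13 (adjusted p = 0.384) without replicate 4. IER3, known as a modulator of cell death, had values of 12.37, 12.32 and 12.39 at 30 min, against 12.81, 12.83, 12.72 and 12.87 at 0 min. Its change was -0.45 ± 0.08 (adjusted p = 0.0693), and -0.43 ± 0.08 (adjusted p = 0.0678) without replicate 4.

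The other 6 genes differed by -0.32 to 0.04 at 30 min, with overlapping groups. None of the 9 genes was called, against 0% of all genes, and 4 of 9 had an unadjusted p below 0.05 (EGR1, IER3, ZFP36 and ZFP36L1), as did 517 of the 12643 genes. The 3 genes whose 30 min arrays all lay below the 0 min arrays compare with 2.41% of all genes. The median change of the 9 was -0.18, beside -0.02 over all genes tested. DUSP6, the ERK phosphatase whose transcript tracks ERK output, differed by -0.62 ± 0.18 (adjusted p = 0.853) and EGFR by 0.15 ± 0.12.

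At 6 h in BT20, the lead probe sets of IER3 and IER5 were 3.15-fold and 2.17-fold lower than at 0 min, those of IER2 and ZFP36L2 were lower by 1.32-fold and 1.33-fold, and that of ZFP36L1 was 1.40-fold higher. ZFP36 was called higher against all 4 of the 0 min arrays, but its change was -0.22 against replicate 4 alone. The changes of IER5 and ZFP36L1 were also smaller against replicate 4 alone, at -0.75 and 0.21. Those of IER3, IER2 and ZFP36L2 were not smaller. IER3 had log2 values of 11.18, 11.13 and 11.14 at 6 h, against 12.81, 12.83, 12.72 and 12.87 at 0 min, and the groups lay far apart beside their own spread. The change was -1.65 ± 0.08 (adjusted p = 1.66e-10), it was -1.63 ± 0.08 (adjusted p = 6.71e-11) without replicate 4, and it was -1.71 ± 0.11 (adjusted p = 3.2e-08) against replicate 4 alone. IER5 had values of 10.35, 10.34 and 10.44 at 6 h, against 11.61, 11.49, 11.73 and 11.13 at 0 min. Here replicate 4 was the lowest 0 min array, and the groups did not overlap. The change was -1.12 ± 0.20 (adjusted p = 0.000509), without replicate 4 it was -1.24 ± 0.20 (adjusted p = 5.32e-05), and against replicate 4 alone it was -0.75 ± 0.28 (adjusted p = 0.151).

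IER2, a nuclear protein of the early response, had 11.27, 11.54 and 11.22 at 6 h, against 11.77, 11.77, 11.64 and 11.78 at 0 min, with no overlap. Its change was -0.40 ± 0.09 (adjusted p = 0.002), or -0.39 ± 0.09 (adjusted p = 0.00181) without replicate 4, and the call was lost against replicate 4 alone, at -0.44 ± 0.13 (adjusted p = 0.067). EGR3, a zinc finger factor of the EGR1 family, showed -0.75 ± 0.17 (adjusted p = 0.00234), but it was tested through the MCF arrays alone, and all its BT20 values lay between 1.88 and 3.19, so this call near background is not read as a fall. EGR1 was not called, at -0.36 ± 0.22 (adjusted p = 0.18), with 12.06, 11.91 and 11.71 at 6 h overlapping the 0 min arrays. Without replicate 4 its change was -0.08 ± 0.13 (adjusted p = 0.6), and against replicate 4 alone, its highest array of the 4, it was -1.20 ± 0.19 (adjusted p = 0.000801, with the spread taken from the other groups).

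ZFP36 had log2 values of 9.31, 9.34 and 9.20 at 6 h. These lay above replicates 1 to 3 of 0 min and below replicate 4. The change was 0.64 ± 0.21 (adjusted p = 0.0205) against all 4 arrays, 0.92 ± 0.11 (adjusted p = 2.02e-06) without replicate 4, and -0.22 ± 0.15 (adjusted p = 0.475) against replicate 4 alone, so the direction of the ZFP36 change at 6 h rests on which 0 min arrays are used. Its call with all 4 was also lost, at adjusted p of 0.0555 to 0.0679, without any one of 0 min replicates 1, 2 or 3 or of 6 h replicates 1 or 2.

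ZFP36L1, its paralog, had 12.34, 12.52 and 12.69 at 6 h, against 11.92, 11.86, 12.06 and 12.31 at 0 min. All 6 h arrays lay above all 0 min arrays, the nearest of which was replicate 4. The change was 0.48 ± 0.12 (adjusted p = 0.00345), 0.57 ± 0.11 (adjusted p = 0.000212) without replicate 4, and 0.21 ± 0.15 (adjusted p = 0.498) against replicate 4 alone. ZFP36L2, the third member of the family, had 12.00, 11.98 and 11.97 at 6 h, against 12.27, 12.29, 12.36 and 12.66 at 0 min, with no overlap. Its change was -0.41 ± 0.10 (adjusted p = 0.00285), -0.32 ± 0.08 (adjusted p = 0.00255) without replicate 4, and -0.68 ± 0.12 (adjusted p = 0.00172) against replicate 4 alone.

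At 6 h, 7 of the 9 genes were called, 2 higher and 5 lower, against 52% of all genes tested, 26.6% higher and 25.4% lower, so calls were common among all genes at this time. Leaving out EGR3 and NR4A1, whose means lay below 4, 6 of 7 genes were called, against 56.7% of all genes with a mean above 4 in at least 1 of the 2 groups. The count over the 9 was also 7 without replicate 4, against 62.8% of all genes. Against replicate 4 alone, with the spread taken from the other groups, it was 4 (EGR1, IER3 and ZFP36L2, all lower, and EGR3 near background), against 5.64% of all genes. The groups did not overlap for 6 of the 9 genes, a state reached by 44.2% of all genes. The median change of the 9 was -0.40, beside -0.01 over all genes. DUSP6 fell by 5.58 ± 0.18 (adjusted p = 5.37e-12), to a mean below 4, and EGFR changed by -0.47 ± 0.12 (adjusted p = 0.00333).

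**Figure D2:**
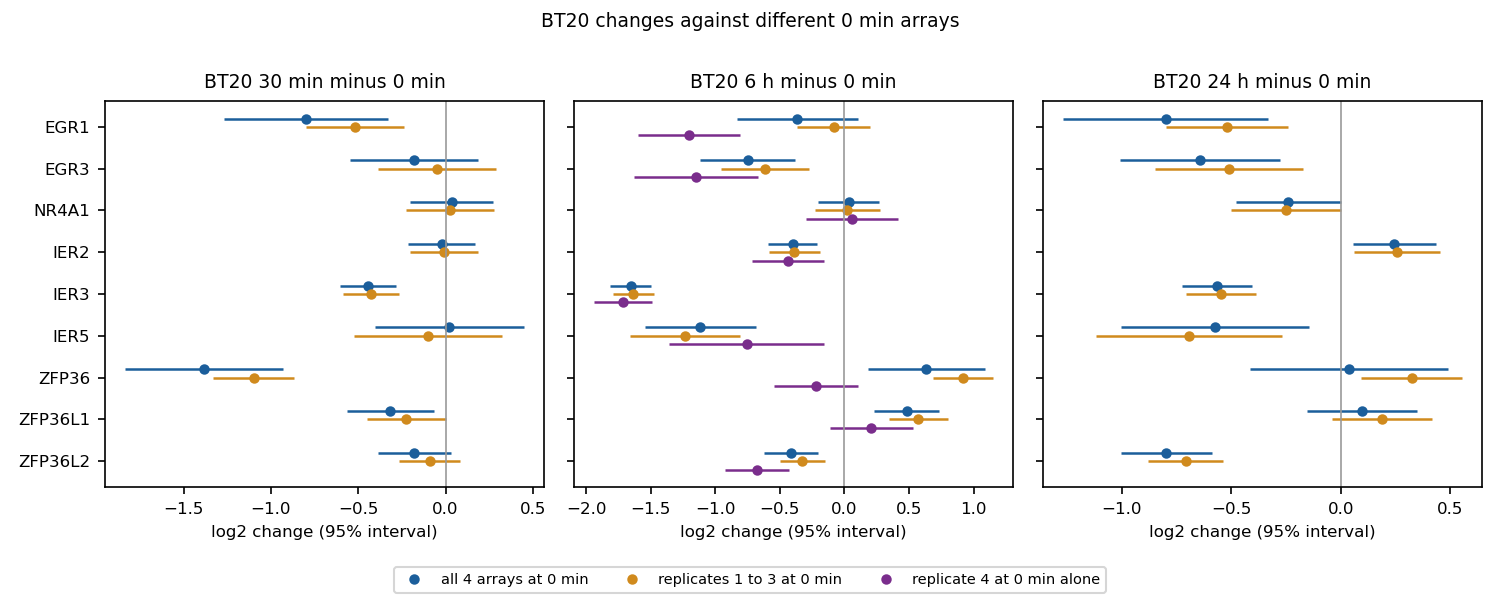
Log2 change with its 95% interval (horizontal axis) of the 9 genes in BT20 at 30 min, 6 h and 24 h, against all 4 arrays at 0 min, against replicates 1 to 3, and at 6 h against replicate 4 alone. At 6 h IER3 lies between -1.71 and -1.63 in all 3 comparisons, while ZFP36 lies at 0.92 against replicates 1 to 3 and at -0.22 against replicate 4 alone.

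At 24 h in BT20, EGR1, IER3, IER5 and ZFP36L2 were lower than at 0 min and IER2 was higher. EGR1 had log2 values of 11.40, 11.60 and 11.36 at 24 h, all below the 0 min arrays. The change was -0.80 ± 0.22 (adjusted p = 0.0076), and -0.52 ± 0.13 (adjusted p = 0.00343) without replicate 4. EGR3 showed -0.64 ± 0.17 (adjusted p = 0.00625), again with every value below 4 and not read as a fall.

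IER3 had 12.24, 12.23 and 12.25 at 24 h, between its 6 h and its 0 min values. The change from 0 min was -0.57 ± 0.08 (adjusted p = 1.2e-05), or -0.55 ± 0.08 (adjusted p = 1.35e-05) without replicate 4. IER5 had 10.93, 10.90 and 10.92 at 24 h, also between its 6 h and its 0 min values, and changed by -0.57 ± 0.20 (adjusted p = 0.03), or by -0.69 ± 0.20 (adjusted p = 0.00803) without replicate 4. IER2 had 11.96, 11.97 and 12.02 at 24 h, above all 0 min arrays, where its 6 h arrays lay below them. Its change was 0.24 ± 0.09 (adjusted p = 0.0369), or 0.26 ± 0.09 (adjusted p = 0.0286) without replicate 4. The calls of IER2 and IER5 at 24 h were each lost, at adjusted p of 0.0511 to 0.111, without any one 24 h array or any one of 0 min replicates 1 to 3.

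ZFP36L2 had 11.53, 11.60 and 11.66 at 24 h, below its 6 h and 0 min arrays. The change was -0.80 ± 0.10 (adjusted p = 5.4e-06), which is 1.74-fold, and it was -0.71 ± 0.08 (adjusted p = 1.86e-06) without replicate 4. ZFP36 had 8.64, 8.70 and 8.71 at 24 h, which again lay above 0 min replicates 1 to 3 and below replicate 4. The change was 0.04 ± 0.21 (adjusted p = 0.906) against all 4 arrays and 0.32 ± 0.11 (adjusted p = 0.02) without replicate 4. ZFP36L1 showed 0.10 ± 0.12 (adjusted p = 0.552). NR4A1 had values of 3.70 to 3.75 at 24 h, all below the 3.80 to 4.11 of 0 min, with a difference of -0.24 ± 0.11 (adjusted p = 0.101).

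At 24 h, 6 of the 9 genes were called, 1 higher and 5 lower, against 43.2% of all genes tested, 24.5% higher and 18.8% lower. Leaving out EGR3 and NR4A1, again below 4, it was 5 of 7, against 45.9% of all genes with a mean above 4 in at least 1 of the 2 groups. Without replicate 4 the count over the 9 genes was 7 of 9, against 51.6% of all genes, the addition being ZFP36. The groups did not overlap for 7 of the 9 genes, against 45.6% of all genes. The median change was -0.57 over the 9 genes and 0.03 over all genes. The 3 BT20 comparisons share their 0 min arrays, so they are given side by side and not as repeats of each other.

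**Figure D3:**
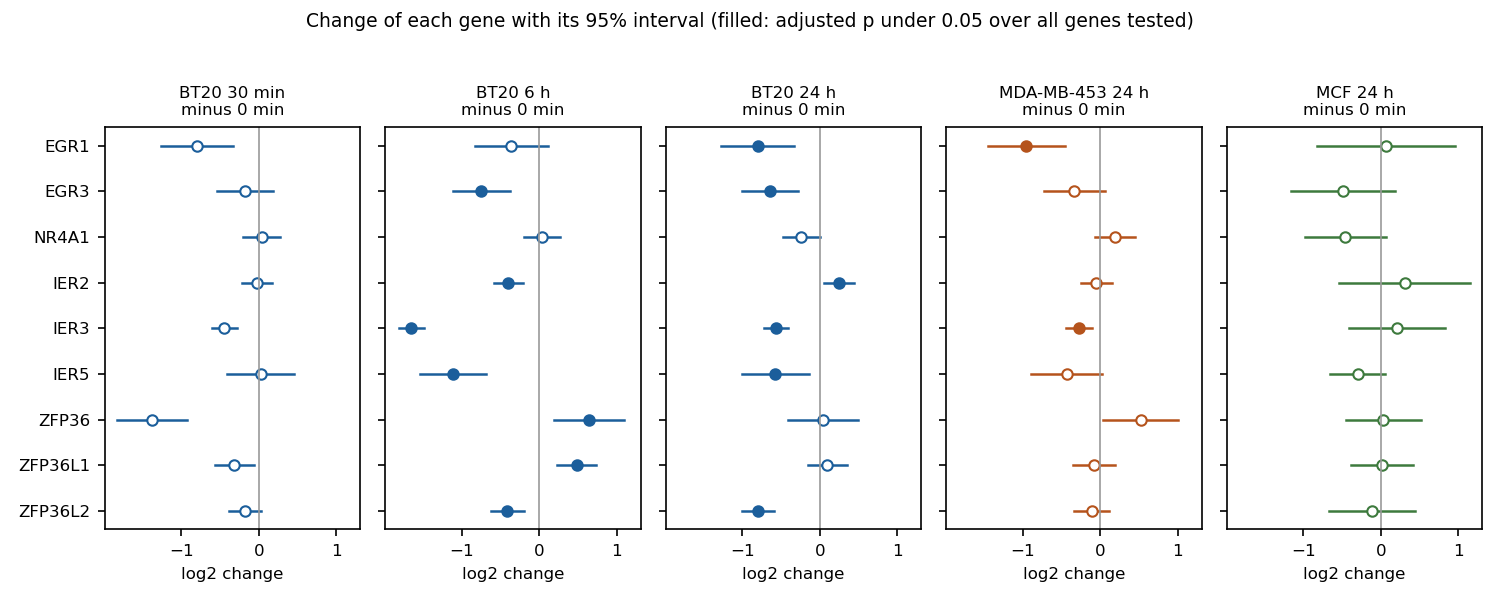
Log2 change with its 95% interval (horizontal axis) of the 9 genes in each comparison with 0 min of the same line; filled points have an adjusted p under 0.05 over the 12643 genes. Filled points number 0 at 30 min, 7 at 6 h and 6 at 24 h in BT20, EGR3 near background among both, 2 in MDA-MB-453 and 0 in MCF.

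EGR1, ZFP36L1 and ZFP36L2 had more than 1 tested probe set, here ordered by mean level, and the second sets of EGR1 and ZFP36L2 were called lower at 24 h in BT20, as the lead sets were. Across the 13 tested probe sets of the 9 genes, fitted among 24585 probe sets, 9 were called at 6 h, against 47.9% of all, and 8 at 24 h, against 39% of all. The second set of EGR1 had 10.58, 10.87 and 10.42 at 24 h, against 11.33, 11.36, 11.03 and 12.68 at 0 min. Replicate 4 was again the highest array, the groups did not overlap, and the change was -0.98 ± 0.28 (adjusted p = 0.00966). At 30 min this set showed -0.95 ± 0.28 (adjusted p = 0.954), also without overlap. Both changes were smaller without replicate 4. At 30 min the change was then -0.59 ± 0.15. The 0 min mean without replicate 4 was 11.24, against a 24 h mean of 10.62.

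For ZFP36L2 the second set had values of 4.97, 4.81 and 4.86 at 6 h and 5.28, 5.27 and 5.23 at 24 h, against 6.24, 6.64, 6.41 and 6.27 at 0 min. Here replicate 4 lay within the other 0 min arrays. The changes were -1.51 ± 0.11 at 6 h (adjusted p = 9.61e-08) and -1.13 ± 0.11 at 24 h (adjusted p = 3.09e-07). The order of times thus differed between the sets: the lead set was lowest at 24 h and the second set at 6 h. The third set changed by -0.80 ± 0.12 at 6 h (adjusted p = 0.000232) and -0.58 ± 0.12 at 24 h (adjusted p = 0.00129), with means below 4 at both times. For ZFP36L1 the second set showed 0.82 ± 0.34 at 6 h (adjusted p = 0.0573), or 1.08 ± 0.32 (adjusted p = 0.00835) without replicate 4. The 6 remaining sets of the 9 genes did not reach 4 on 3 arrays and were not tested. Among them the third EGR1 set had 3.54, 3.92, 4.32 and 5.81 in BT20 at 0 min, the highest again in replicate 4.

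**Figure D4:**
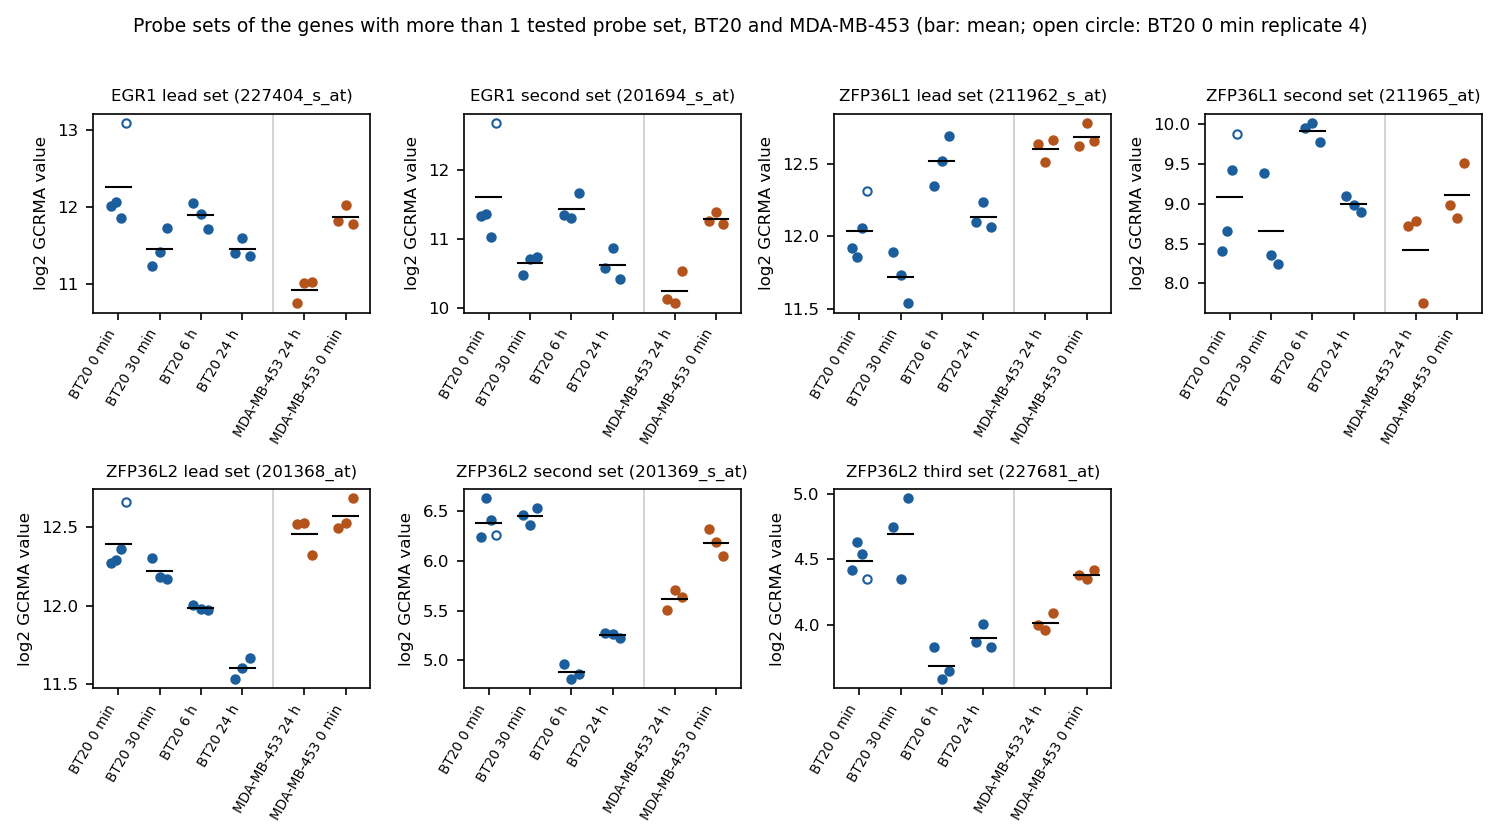
Log2 GCRMA value (vertical axis) of each tested probe set of EGR1, ZFP36L1 and ZFP36L2 on the BT20 and MDA-MB-453 arrays, by line and time (horizontal axis), with a bar at the group mean and an open circle for BT20 0 min replicate 4. The second ZFP36L2 set is lowest at 6 h in BT20, at 4.81 to 4.97, and the lead set at 24 h, at 11.53 to 11.66.

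In MDA-MB-453, a line with a mean EGFR value of 3.53 at 0 min, EGR1 was 1.94-fold lower at 24 h, and IER3 was lower by a smaller change. EGR1 had log2 values of 10.74, 11.00 and 11.02 at 24 h, against 11.81, 12.03 and 11.78 at 0 min. The groups did not overlap, and the change was -0.95 ± 0.24 (adjusted p = 0.0137), or -0.95 ± 0.12 (adjusted p = 0.00835) in a fit to the arrays of this line alone. The call was lost without 24 h replicate 1 (adjusted p = 0.0637) or 0 min replicate 2 (adjusted p = 0.0577). Its second probe set changed by -1.04 ± 0.30 (adjusted p = 0.0331).

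IER3 had 12.02, 12.22 and 12.06 at 24 h, against 12.33, 12.31 and 12.48 at 0 min, with no overlap. Its change was -0.27 ± 0.08 (adjusted p = 0.0357), but -0.27 ± 0.10 (adjusted p = 0.155) in the line alone, and the call was lost in 5 of the 6 fits that left out 1 array of this line. ZFP36 had 9.51, 9.26 and 9.57 at 24 h, against 9.04, 8.83 and 8.91 at 0 min. All 24 h arrays lay above all 0 min arrays, with a change of 0.52 ± 0.23 (adjusted p = 0.17) in the fit shared with BT20 and 0.52 ± 0.12 (adjusted p = 0.0446) in the line alone.

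Of the 9 genes, 2 were called in MDA-MB-453, both lower, against 11.7% of all genes tested, 7.85% higher and 3.88% lower. In the line alone 2 were called as well, EGR1 and ZFP36, against 8.3% of all genes. The groups did not overlap for 3 of the 9 genes, against 30.2% of all genes. Over the 13 probe sets 3 were called, against 9.74% of all, and the third of these was the second ZFP36L2 set, with 5.51, 5.71 and 5.64 at 24 h and 6.32, 6.19 and 6.05 at 0 min, a change of -0.57 ± 0.11 (adjusted p = 0.00388). The lead ZFP36L2 set showed -0.11 ± 0.11 (adjusted p = 0.607) and the third set -0.37 ± 0.13 (adjusted p = 0.101). IER5 differed by -0.44 ± 0.22 (adjusted p = 0.238), with overlapping arrays. DUSP6 differed by -0.19 (adjusted p = 0.639).

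In MCF none of the 9 genes was called at 24 h, in a fit of 6 arrays whose intervals are wide. A single gene of the 12643 was called in this line, which is 0.00791%, while 736 genes and 0 of the 9 had an unadjusted p below 0.05. EGR1 had log2 values of 11.59, 12.86 and 12.67 at 24 h, against 12.11, 12.59 and 12.22 at 0 min. The 24 h arrays spread wider than the 0 min arrays and overlapped them, and the change was 0.07 with a 95% interval of -0.82 to 0.96. EGR3, above 4 in this line alone, had 9.32, 9.70 and 8.77 at 24 h, against 9.52, 9.94 and 9.80 at 0 min. These groups overlapped, with a change of -0.49 ± 0.27 (adjusted p of 1).

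IER5 had 11.10, 11.23 and 11.01 at 24 h, against 11.36, 11.37 and 11.51 at 0 min. It was the 1 gene of the 9 whose groups did not overlap in MCF, against 11.8% of all genes, and its change was -0.30 ± 0.15 (adjusted p = 0.964). IER3 showed 0.21 (95% interval -0.42 to 0.83), and ZFP36 showed 0.03 (95% interval -0.45 to 0.52). The interval of IER3 leaves out falls of the size seen in BT20 at 24 h, and that of EGR1 holds the BT20 value.

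The 24 h changes of BT20 were then set against those of the other lines directly. The change of ZFP36L2 was lower in BT20 than in MDA-MB-453, with a difference of -0.68 ± 0.14 (adjusted p = 0.00229), and without BT20 0 min replicate 4 the difference was -0.60 ± 0.12 (adjusted p = 0.000785). ZFP36L2 was the 1 gene of 9 called in this difference, against 21.8% of all genes with all arrays and 32.9% without replicate 4. Its second probe set gave -0.57 ± 0.16 (adjusted p = 0.0172), one of 2 of the 13 probe sets called, against 18.4% of all. IER3 differed by -0.29 ± 0.11 (adjusted p = 0.0705). For EGR1, lower at 24 h in both lines, the difference of the changes was 0.15 ± 0.32 (95% interval -0.53 to 0.84, adjusted p = 0.798), and 0.43 ± 0.19 (adjusted p = 0.0883) without replicate 4.

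Between BT20 and MCF, the change of IER3 was lower in BT20, with a difference of -0.77 ± 0.21 (adjusted p = 0.024), the 1 gene of 9 called, against 7.57% of all genes, and against 11.4% without BT20 0 min replicate 4. With the spread of each line kept apart the adjusted p of IER3 was 0.136, and the call was lost without 0 min replicate 1 or 3 or 24 h replicate 1 or 2 of MCF. ZFP36L2 differed by -0.68 ± 0.24 (adjusted p = 0.0907), and its second probe set by -0.83 ± 0.24 (adjusted p = 0.0435), one of 2 of 13 probe sets called, against 6.88% of all. EGR1 differed by -0.87 ± 0.50 (adjusted p = 0.406).

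The rest of the early response was read from 6 lists of genes. At 30 min limma called none of their 65 tested genes in BT20, and 12 had an unadjusted p below 0.05, as did 517 of all 12643 genes. At 6 h, of 16 tested genes among the other immediate early transcription factors, 3 rose and 4 fell, with a median change of -0.16, and at 24 h 4 rose and 8 fell, with a median of -0.55. Beside these medians, and those of the lists that follow, all genes tested had medians of -0.01 at 6 h and 0.03 at 24 h. Of all genes tested 26.6% were called higher and 25.4% lower at 6 h, and 24.5% and 18.8% at 24 h, so the 6 h counts of this list lie near or below the background. Without replicate 4, 6 of these 16 were higher and 6 lower at 6 h, against 31.4% of all genes in each direction. FOSL1, an AP-1 subunit that ERK stabilises, changed by -6.42 ± 0.27 at 6 h (adjusted p = 7.53e-11) and by -5.98 ± 0.27 at 24 h (adjusted p = 3.69e-11). MAFF changed by -1.58 ± 0.13 at 6 h (adjusted p = 4.54e-07) and by -1.60 ± 0.13 at 24 h (adjusted p = 5.64e-08), while ATF3, a stress-induced factor, rose by 1.87 ± 0.27 at 6 h (adjusted p = 0.000107). KLF4, at -2.29 ± 0.14 (adjusted p = 1.71e-09), and NR4A3, the paralog of NR4A1, at -2.38 ± 0.20 (adjusted p = 7.72e-08), were lower at 24 h.

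Of 16 tested genes among the other immediate early genes, 2 rose and 7 fell at 6 h, and 4 rose and 7 fell at 24 h, with medians of -0.14 and -0.19. These 9 and 11 calls of 16 stand beside 52% and 43.2% of all genes called at these times. HBEGF, a ligand of EGFR, changed by -2.77 ± 0.18 at 6 h (adjusted p = 2.34e-08) and by -3.69 ± 0.18 at 24 h (adjusted p = 1.03e-10), with a 24 h mean below 4. PHLDA1 fell by 1.52 ± 0.11 at 6 h (adjusted p = 6.25e-08), and GADD45B, of the growth arrest genes, rose by 2.48 ± 0.19 at 24 h (adjusted p = 1.89e-08). Without replicate 4, 3 of the 16 were higher and 7 lower at 6 h, beside 31.4% of all genes in each direction. Against replicate 4 alone, the median change at 6 h was -0.42 among the transcription factors and -0.24 among the other genes. Over all genes tested it was 0.01.

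**Figure D5:**
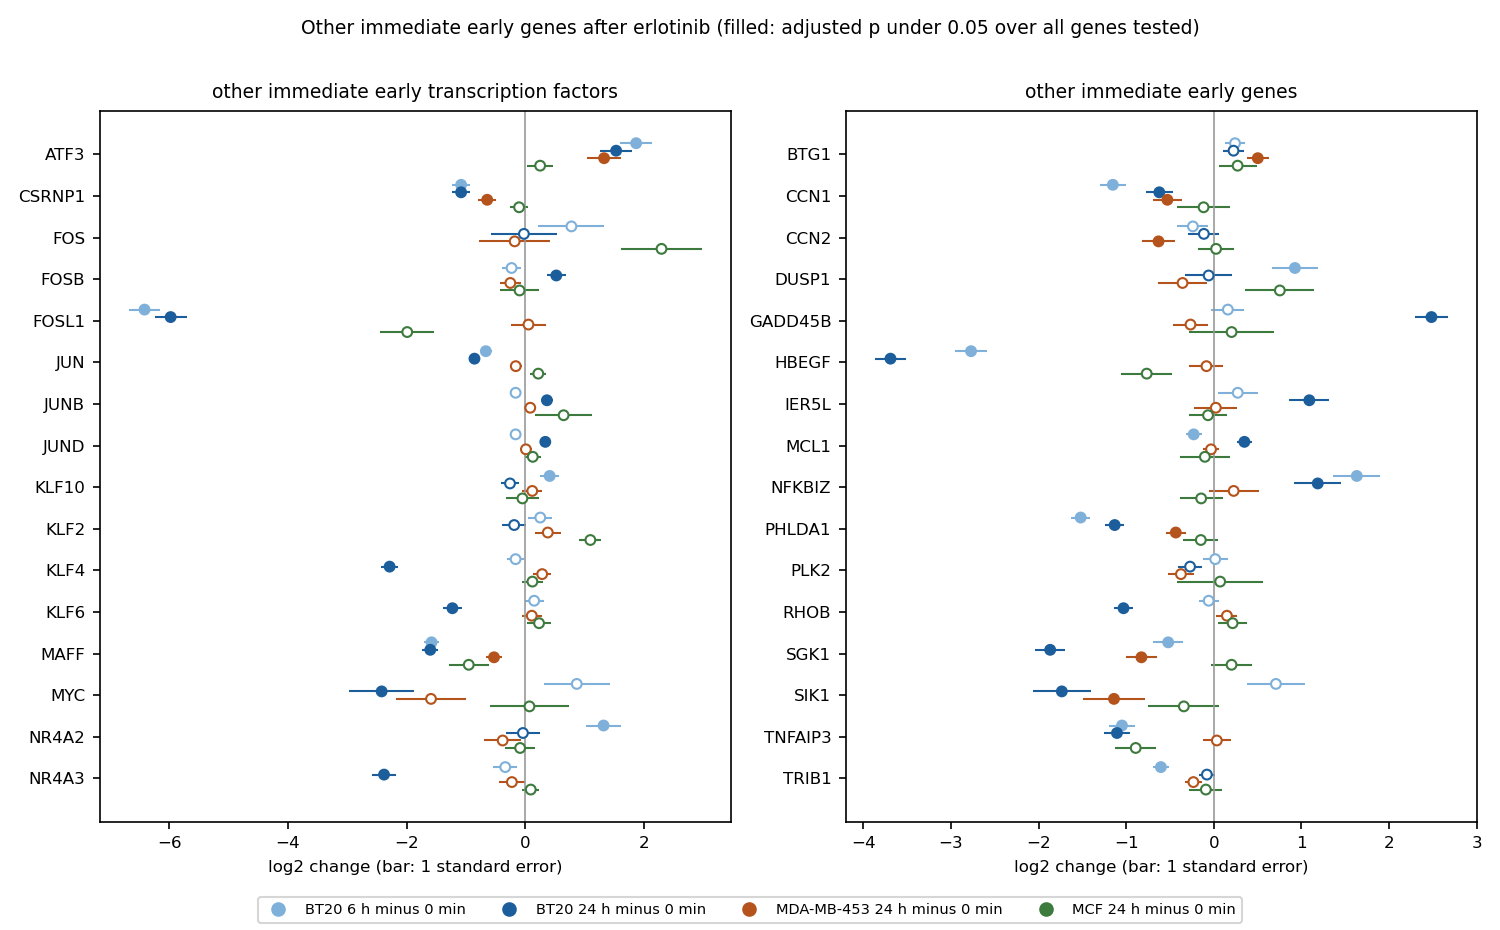
Log2 change with 1 standard error (horizontal axis) of 16 other immediate early transcription factors and 16 other immediate early genes at 6 h and 24 h in BT20, at 24 h in MDA-MB-453 and at 24 h in MCF, each against 0 min of the line; filled points have an adjusted p under 0.05. FOSL1 lies at -6.42 and -5.98 in BT20, and ATF3 at 1.87 at 6 h in BT20.

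SRF, the factor known to bind CArG boxes, changed by -1.10 ± 0.11 at 6 h (adjusted p = 4.17e-06) and was higher at 24 h, by 0.45 ± 0.11 (adjusted p = 0.00365). Of 6 genes for SRF and its cofactors, 3 rose and 1 fell at 6 h, and 1 rose and 1 fell at 24 h, with medians of -0.02 and 0.00. In this list and those below, the calls stand beside 52% of all genes called at 6 h and 43.2% at 24 h. Without replicate 4, 3 were higher and 3 lower at 6 h, beside 62.8% of all genes called. Against replicate 4 alone the SRF change at 6 h was -1.08. Of 7 tested corepressors and targets of EGR1, 1 rose and 5 fell at 6 h, and 1 rose and 2 fell at 24 h, with medians of -0.68 and -0.30. Without replicate 4, 2 were higher and 5 lower at 6 h, beside 62.8% of all genes called. Against replicate 4 alone the median change of the 7 at 6 h was -0.46, beside 0.01 over all genes. NAB2, a corepressor of EGR proteins, changed by -1.11 ± 0.12 at 6 h (adjusted p = 6.11e-06) and by -1.12 ± 0.12 at 24 h (adjusted p = 9.14e-07). F3, the gene of tissue factor, changed by -0.68 ± 0.11 at 6 h (adjusted p = 0.000176) and by -1.56 ± 0.11 at 24 h (adjusted p = 4.69e-09).

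Of 14 mRNAs known as targets of ZFP36 proteins, 6 were tested. Of these 1 rose and 3 fell at 6 h, and 0 rose and 4 fell at 24 h, with medians of -0.69 and -1.10. Of all genes, 52% were called at 6 h and 43.2% at 24 h. At 6 h, 2 of the 6 were higher and 3 lower without replicate 4, beside 62.8% of all genes called. Against replicate 4 alone the median change of the 6 at 6 h was -1.04, beside 0.01 over all genes. LIF, a cytokine, fell by 2.66 ± 0.24 at 6 h (adjusted p = 8.94e-07) and was called lower at 24 h as well (adjusted p = 6.84e-09). CCND1, the gene of cyclin D1, changed by -1.26 ± 0.09 at 6 h (adjusted p = 9.54e-08) and by -1.14 ± 0.09 at 24 h (adjusted p = 4.37e-08). VEGFA rose by 0.69 ± 0.14 at 6 h (adjusted p = 0.000868), but showed 0.28 (adjusted p = 0.353) against replicate 4 alone. Of 14 partners in AU-rich mRNA decay, 8 rose and 1 fell at 6 h, and 4 rose and 1 fell at 24 h, with medians of 0.31 and 0.17. The 6 h counts were also 8 and 1 without replicate 4, beside 62.8% of all genes called. Against replicate 4 alone the median change of the 14 at 6 h was 0.10, beside 0.31 against all 4 arrays and 0.01 over all genes. The size of the 6 h rise in this list thus rests on which 0 min arrays are used. CNOT8, a deadenylase subunit, rose by 0.93 ± 0.16 at 6 h (adjusted p = 0.000337), and CNOT3, of the same complex, by 1.03 ± 0.10 at 24 h (adjusted p = 5.79e-07).

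In MDA-MB-453 at 24 h, 1 of the transcription factors rose and 2 fell, 1 of the other early genes rose and 5 fell, and NAB2 fell by 0.43 ± 0.13 (adjusted p = 0.0335), the 1 call among the other 4 lists, where 7.85% of all genes were called higher and 3.88% lower. ATF3 rose there by 1.33 ± 0.29 (adjusted p = 0.00622), and SGK1 fell by 0.83 ± 0.18 (adjusted p = 0.00568). In MCF limma called none of the 65 genes of the 6 lists, and 11 had an unadjusted p below 0.05, as did 736 of all 12643 genes. In the difference between the BT20 and MDA-MB-453 changes at 24 h, FOSL1 stood at -6.04 ± 0.39 (adjusted p = 1.2e-08), HBEGF at -3.61 ± 0.27 (adjusted p = 5.3e-08) and NAB2 at -0.68 ± 0.17 (adjusted p = 0.00834).

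Genes with the most similar pattern were found by the root mean square difference over the 5 changes from 0 min, a description of 5 values per gene with shared 0 min arrays. For EGR1 they were HTATSF1P2 (0.311), CASC7 (0.320) and MTFP1 (0.337), for IER3 WNK4 (0.280), BRAT1 (0.285) and ZNF90 (0.302), and for ZFP36 AMIGO2 (0.348), FRMD4B (0.349) and SLC13A3 (0.368). Without BT20 0 min replicate 4 the 3 nearest to EGR1 were ZIC2 (0.252), NOL8 (0.252) and HTATSF1P2 (0.255), those to IER3 PCYT2 (0.140), GPN2 (0.156) and UTP3 (0.169), and those to ZFP36 AMIGO2 (0.289), ENPP1 (0.349) and MRPL45P2 (0.351). HTATSF1P2 for EGR1 and AMIGO2 for ZFP36 were found in both settings, and no gene was for IER3.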

How the data were processed

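The values are the deposited log2 values per probe set that the authors made from Affymetrix arrays, with GCRMA 2.20.0 in R 2.11.1 per the submitters' processing notes. GCRMA models background from the probes' base composition, scales arrays together and summarises the probes of a set, so values below about 4 are near background. Which arrays were normalized together is not given in the sources used here. The deposited values were used unchanged. Each gene was read from the probe set with 1 symbol (41091 of 54613; 1801 had several, 11721 none) and the highest mean. Genes above 4 on at least 3 arrays (12643 of 19775) were tested in R 4.3.3 with limma 3.58.1, with 1 fit for the 19 arrays of Part 1 (13 residual degrees of freedom), 1 for the 6 of Part 2 (4 degrees), and 1 for all 25 with array weights per line for the difference between BT20 and MCF (17 degrees). The two-sided p was adjusted by Benjamini-Hochberg over all genes, with 0.05 as threshold. The error after ± is the standard error. For arrays, their number limits the precision.

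Genes named are the 10 members, up to 5 called genes per list with the smallest p, the 3 nearest patterns to EGR1, IER3 and ZFP36, and DUSP6 and EGFR. Of the marker list, genes without a value are not reported here. Members and lists were chosen with earlier results of these data known. Motifs were searched in RefSeq promoter windows. Alternatives were the filter (none, or above 6), the mean of probe sets, every probe set, centring on the median, a trended and robust step, all 25 arrays, a batch term for BT20 0 min replicate 4 with the 6 h arrays, a replicate block, the arrays of a line alone and each array left out. A fit with the spread of each line kept apart was chosen after seeing the data. The code was tested on simulated data with 200 changed genes and the spread of each line. That spread was taken without BT20 0 min replicate 4, so the shares that follow do not cover the deviation of that array. False calls made up 4.41% to 9.52% of calls in the 3 BT20 comparisons, but 44.1% in the MDA-MB-453 fit shared with BT20. With the MDA-MB-453 arrays alone they made up 4.88%. In the difference between the BT20 and MDA-MB-453 changes at 24 h they made up 16.3%, or 23.6% with the spread of each line kept apart. In the 0 min levels of BT20 against MDA-MB-453 they made up 13.0%, or 12.8% with the spread of each line kept apart. In the difference between BT20 and MCF they made up 60%, or 37.5% with the spread of each line kept apart. In MCF 0% of planted log2 changes of 1 were recovered. Deviations of same-numbered replicates had no common direction, so replicates were not paired, though groups of 3 or 4 arrays cannot exclude pairing.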

Additional observations from a re-analysis of the deposited data

Results flagged for a closer look

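The 4 BT20 0 min arrays were tested for a value far from the other 3 in each of 9 genes, and chance marks about 5% of groups. ZFP36 had 9.50 in replicate 4, against 8.32 to 8.45 in the others. EGR3 had 3.19 in replicate 4, against 2.60 to 2.70, all below 4. IER2 had 11.64 in replicate 3, against 11.77 to 11.78. EGR1, with 13.10 in replicate 4 against 11.85 to 12.07, narrowly missed this threshold, so the test does not set it apart from EGR3. Across the 12643 genes tested, replicate 4 was nearer by correlation to the 6 h arrays than to the rest of 0 min. At 6 h the ZFP36 change was 0.92 without replicate 4 and -0.22 against it alone. The EGR1 change at 6 h was -0.08 without it and -1.20 against it alone.

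Changes at 24 h of ZFP36L2 and IER3 differed between lines by a test of the difference itself. That of ZFP36L2 was lower in BT20 than in MDA-MB-453, with a difference of -0.68, and that of IER3 was lower in BT20 than in MCF, with a difference of -0.77. The IER3 call was lost with the spread of each line kept apart (limma with Benjamini-Hochberg, adjusted p = 0.136) and in 4 of 13 fits that left out 1 array.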

How the results depend on the processing

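At 30 min in BT20, 0 of 9 genes were called, and the count was 2 with probe sets averaged per gene and with the trended and robust step, and 1 with all 25 arrays, the batch term and the replicate block. At 6 h it was 7, and 4 with the batch term, under which the ZFP36 change turned to -0.22. In MDA-MB-453 it was 2, and 1 with the mean of probe sets and with every probe set, 0 with all 25 arrays, and 3 with the replicate block. The difference between BT20 and MDA-MB-453 gave 1, and 2 with the trended and robust step and with the replicate block. That between BT20 and MCF gave 1, 2 with the trended and robust step and with all 25 arrays, and 0 with the spread of each line kept apart. Leaving out 1 array gave counts of 0 to 1 at 30 min, 6 to 7 at 6 h, 4 to 7 at 24 h, 0 to 2 in MDA-MB-453, 0 in MCF, 1 to 2 and 0 to 2 for the differences from MDA-MB-453 and MCF, and 5 to 7 for the levels at 0 min. In MCF the count was 0 under each alternative run, which in a fit of 6 arrays says nothing about stability. The share of all genes called also moved with the setting. At 6 h it was 52%, and 62.8% without replicate 4. In MDA-MB-453 it was 11.7%, and 9.74% over every probe set. Shares under most other settings are not given here, so these counts do not tell shifts of these genes from shifts of all genes. Of 1280 gene values under an alternative, 1203 kept direction and side of the threshold or were called in neither, 45 lost a call, 31 gained one and 1 was called and turned. Correlations of same-numbered deviations ran from -0.64 to 0.80. Deviations from the mean of 3 or 4 arrays are tied to each other, so these values cannot decide whether the replicate numbers pair the samples. The cause of these shifts was not tested. Signal near or below 4 limits NR4A1 in all 3 lines and EGR3 in BT20 and MDA-MB-453.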
